A study of Rattus norvegicus with 36 samples.

Results

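The livers of rats given TBPH at 70.6 mg/kg were compared with the livers of rats given the corn oil vehicle, using 6 arrays of each group out of the 36 arrays of the series. All 12 arrays carrying either label were taken, together with every probe set on them that is not an array control, which gave 31042 probe sets. TBPH is bis(2-ethylhexyl) tetrabromophthalate, a brominated phthalate ester used as a flame retardant and plasticiser. The series asked which liver transcripts differed from vehicle at each of 5 doses of TBPH. Both groups were male Harlan Sprague Dawley rats, 7 weeks old when the study began, fed the NTP-2000 diet. They were gavaged with 5 ml/kg of corn oil, carrying 70.6 mg/kg of TBPH for the dosed group and no TBPH for the vehicle group, on 5 days in a row. The left liver lobe was taken 1 day after the last dose, and RNA was amplified from the 3′ end and hybridised to an Affymetrix rat array. The labels number the replicates from 1 to 6 and do not say whether every array comes from its own animal. The p-values and intervals therefore measure spread between arrays, estimated within groups over all 36 arrays and not over these 12 alone. No transgene, deletion or second agent is named for either group.

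Ethylhexyl phthalates without bromine are classic peroxisome proliferators in rat liver. Their monoester metabolites activate the nuclear receptor PPAR alpha, which raises the enzymes of fatty acid oxidation and the Cyp4a fatty acid hydroxylases. Foreign compounds in the liver are also sensed by CAR, PXR and the aryl hydrocarbon receptor, which control cytochrome P450 genes. The liver further answers growth hormone through the STAT5 factor, bile acids through FXR, and stress or growth signals through immediate early genes, whose transcripts appear and disappear within hours.

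No probe set differed between the 70.6 mg/kg and vehicle arrays at an adjusted p under 0.05 in limma's moderated test (0 of 31042, 0.0%), and the smallest adjusted p was 0.632. An unadjusted p under 0.05 was reached by 1626 probe sets (5.24%), of which 752 were higher at 70.6 mg/kg (2.42%) and 874 were lower (2.82%). A share of 0.05 of all probe sets is 1552.1, so the number was close to what the threshold itself admits. The median difference over all probe sets was -0.002 on the log2 scale and the median size of a difference was 0.06. Every difference given here is 70.6 mg/kg minus vehicle in log2 units of the deposited values unless another pair is named. The 95% interval of the difference excluded a 2-fold change in either direction for 99.5% of probe sets and a 1.5-fold change for 97.1%. Among the 11680 probe sets with a mean of at least 6 over all arrays, these shares were 98.9% and 95.4%. The genes described below are therefore the ones with the largest differences among many that were small, and none of them passed the test across all probe sets.

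Replicate 5 at 70.6 mg/kg stood apart from the other arrays. The 3′ minus 5′ difference of the GAPDH controls, which is read as a sign of RNA quality, was 0.41 on that array. It was 0.33 on replicate 4 at 0.07 mg/kg and between -0.18 and 0.09 on all the remaining arrays. The first principal component, which carried 12.7% of the variance, placed replicate 5 at 37.5, replicate 4 at 0.07 mg/kg at 32.9, and the others between -14.7 and 11.96. Replicate 5 held the highest value of the 6 dosed arrays in 33.2% of the 14217 genes, against 11.3% to 16.7% for each of the other 5. Without it, no probe set was called (0 of 31042), the smallest adjusted p was 0.834, and 1354 probe sets had an unadjusted p under 0.05 (4.36%), with 627 above vehicle (2.02%) and 727 below it (2.34%). Of the 1626 probe sets counted with all 6 arrays, 915 (56.3%) kept that mark without replicate 5, all in the same direction. Hepatocyte markers bore out the tissue label: the mean level of 11 measured hepatocyte genes, including albumin and transthyretin, ran from 13.60 to 13.68 over the dosed arrays and from 13.63 to 13.67 over the vehicle arrays, near the top of the 1.86 to 14.77 range. In whole liver RNA, fewer cells of a type and less RNA per cell cannot be told apart.

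Seen as single genes, each represented by its brightest probe set, 735 of 14217 had an unadjusted p under 0.05 (5.17%), with 425 higher at 70.6 mg/kg (2.99%) and 310 lower (2.18%). Over all genes 7785 lay above 0 and 6432 below, with a median difference of 0.01. All 6 dosed arrays lay above all 6 vehicle arrays in 11 genes (0.0774%) and below them in 12 genes (0.0844%). Over all probe sets the same separation was seen in 21 above (0.0677%) and 31 below (0.0999%). Without replicate 5, 592 genes had an unadjusted p under 0.05 (4.16%), 310 of them higher (2.18%) and 282 lower (1.98%). These shares are the background for the gene groups below. The groups and their members were chosen with results of these arrays already known, so their counts are descriptions.

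Among genes whose brightest probe set had a mean of at least 6 and an unadjusted p under 0.05, the 6 largest differences above 0 were those of Gadd45g, Cish, Nfe2, Dusp1, Rgs3 and Hhex. The 6 largest below 0 were those of Cyp7a1, Depp1, Egfr, Etv3, Cry1 and Ppm1k. Nfe2 is given with the erythroid markers and Cry1 with the clock genes. Cish encodes a SOCS family protein that STAT5 induces after growth hormone and that dampens the growth hormone receptor. Its level was 8.13, 8.28, 8.18, 7.89, 8.22 and 7.90 in the dosed arrays, against 7.06, 7.89, 7.60, 5.69, 5.63 and 5.27 in the vehicle arrays. The dosed arrays were tightly grouped and all lay above the vehicle arrays, which were spread widely, with replicates 4, 5 and 6 lowest. The mean was 8.10 ± 0.17 at 70.6 mg/kg and 6.52 ± 1.13 in vehicle (SD, n = 6 each). The difference was 1.58 (95% interval 0.55 to 2.60), a 2.98-fold higher level, with an adjusted p of 0.921 in limma. A second Cish probe set gave 1.69, and without replicate 5 the first gave 1.55.

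The promoter of Cish, as RefSeq gives it for GRCr8, is shown because Cish had the clearest separation of any gene with a large difference and because STAT5 is known to act there. The window is chr8:116850719-116851018 on the plus strand, 250 bases before to 50 bases after the gene's start, and the capitals mark the STAT motif TTCNNNGAA, which is its own reverse complement and was searched on both strands.
Cish: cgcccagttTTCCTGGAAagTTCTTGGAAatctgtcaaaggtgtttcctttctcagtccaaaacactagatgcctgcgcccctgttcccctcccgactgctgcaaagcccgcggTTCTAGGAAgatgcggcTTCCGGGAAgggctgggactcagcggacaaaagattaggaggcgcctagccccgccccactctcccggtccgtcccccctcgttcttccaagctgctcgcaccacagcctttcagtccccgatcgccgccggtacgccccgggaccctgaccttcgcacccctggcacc
The 4 matches began 241, 230, 136 and 119 bases before the start. Of 33469 rat promoters of the same length, 8.87% held at least 1 match and only 2 held 4 or more. Of 10 genes looked up for this motif after their values were seen, 7 had a promoter in the table, and Cish alone held a match. Gadd45g, Dusp1, Hhex, Klf6, Bcl6 and Igf1 held none in this window, which says only that these letters are not there.

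Gadd45g, a growth arrest gene induced by stress and cytokines, had the largest difference of any gene chosen by size. Its level was 9.23, 9.28, 9.74, 9.64, 8.90 and 9.35 at 70.6 mg/kg, against 9.11, 9.57, 7.55, 6.65, 7.36 and 6.32 in vehicle. Vehicle replicates 1 and 2 lay within the dosed range and the other 4 lay well below it. The difference was 1.60 (0.42 to 2.77; adjusted p 0.921), and it was 1.69 without replicate 5. Hhex, a homeobox factor needed for liver development, was between 10.97 and 11.33 in the dosed arrays, against 10.49, 11.02, 11.17, 9.52, 9.30 and 9.70 in vehicle, a difference of 0.96 (0.33 to 1.58). Rgs3, which shortens signals from G protein coupled receptors, was between 8.76 and 9.92 at 70.6 mg/kg, against 9.17, 9.40, 9.19, 8.07, 7.74 and 7.61 in vehicle, a difference of 0.96 (0.20 to 1.71). For both genes the groups overlapped, and vehicle replicates 4, 5 and 6 were the low ones, as for Cish. The other, dimmer probe sets of Rgs3 gave 0.03 and 0.06. Leaving out any 1 of the 12 arrays moved the Cish difference between 1.33 and 1.85.

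**Figure D1:**
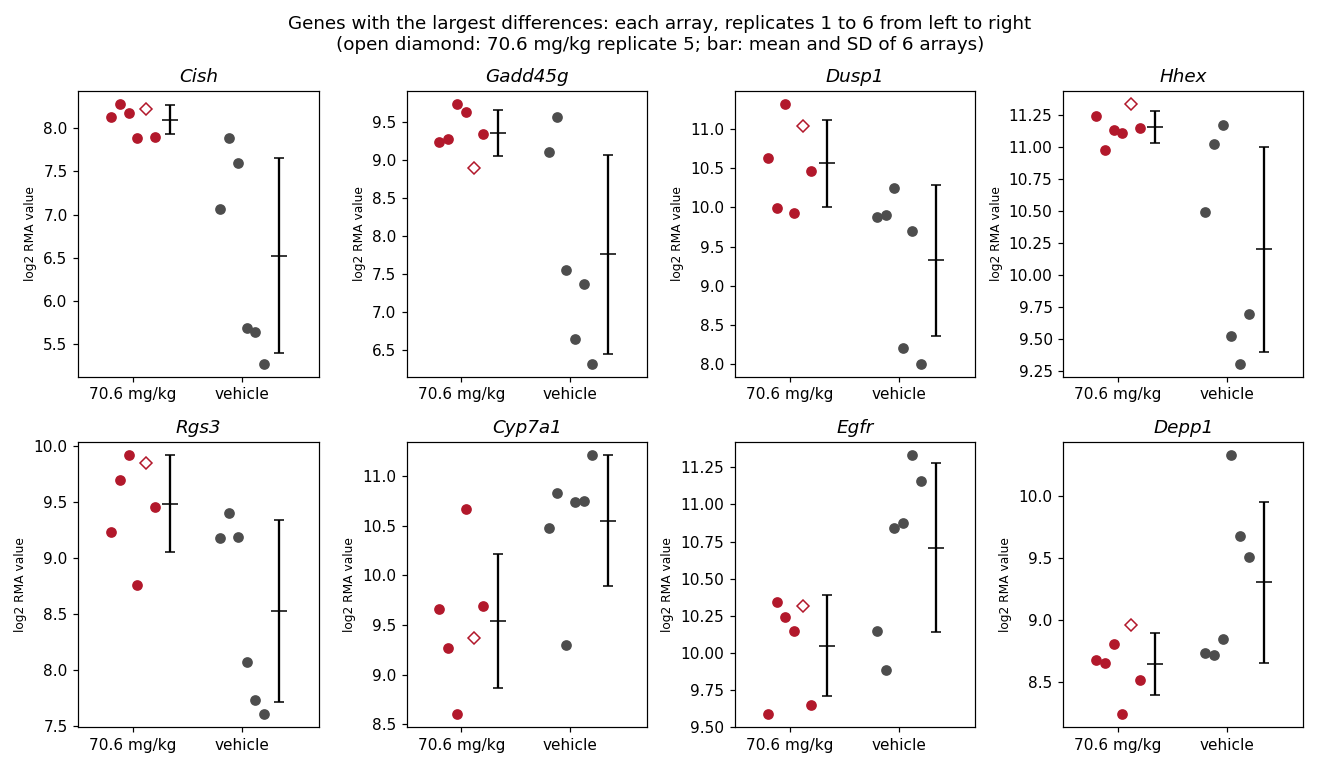
Deposited log2 value (vertical axis) of 8 genes on each array at 70.6 mg/kg (red, left in each panel) and in vehicle (grey, right), replicates 1 to 6 from left to right, with the mean and SD of 6 arrays as a bar and replicate 5 at 70.6 mg/kg as an open diamond. In Cish the 6 dosed arrays lie between 7.89 and 8.28, while vehicle replicates 4, 5 and 6 lie between 5.27 and 5.69; for Cyp7a1 the dosed arrays lie mostly below the vehicle arrays.

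Among genes lower at 70.6 mg/kg, Depp1, a gene induced by FOXO factors in fasting, was between 8.24 and 8.96 in dosed arrays, against 8.73, 8.71, 8.85, 10.33, 9.68 and 9.51 in vehicle. Its difference was -0.66 (-1.22 to -0.10). The receptor for epidermal growth factor, Egfr, was between 9.59 and 10.34 at 70.6 mg/kg, against 9.89 to 11.34 in vehicle, and its difference was -0.66 (-1.19 to -0.13). Its other probe sets gave -0.69 and -0.06. Etv3, a repressor of the ETS family, differed by -0.61 (-1.10 to -0.12), and Ppm1k, the phosphatase that activates branched chain amino acid breakdown, by -0.45 (-0.72 to -0.18). The dosed and vehicle ranges overlapped in all 4 genes.

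Many of the genes with the smallest unadjusted p had small differences in dim probe sets, though some were brighter. Sfrp1, a secreted Wnt inhibitor, was 2.19 to 2.65 at 70.6 mg/kg against 2.57 to 2.84 in vehicle, a difference of -0.32 (adjusted p 0.687), while its other probe sets gave 0.08 and -0.06. The folate receptor gene Folr1 was 3.87 to 4.19 in dosed arrays against 4.29 to 4.43 in vehicle, a difference of -0.30 with no overlap (adjusted p 0.687). Foxq1, a forkhead factor, was 4.84 to 5.34 in dosed arrays against 4.57 to 4.79 in vehicle, a difference of 0.39 with no overlap (adjusted p 0.735). These levels lie near or below the median of all values, 5.09. Tecpr1, a protein of autophagosome fusion, differed by 0.29 with no overlap, but its brightest probe set gave 0.07. Prox1, a homeobox factor of hepatocyte identity, differed by -0.38, and its brightest probe set by -0.28. Among the brighter genes chosen by smallest p, Lurap1l differed by 0.80 (0.37 to 1.22) and Enpp2, which makes lysophosphatidic acid, by 0.35 (0.16 to 0.53). Flot1, a membrane raft protein, differed by 0.24 (0.10 to 0.37), and Klf6, given with the immediate early genes, by 0.55 (0.24 to 0.86). Btnl3 (-0.28), Zp2 (-0.31) and Nxph1 (-0.33) were dim throughout.

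Immediate early genes were divided into 20 measured transcription factors and 13 measured feedback regulators and other early genes. The feedback and other genes had the largest median difference of the 33 gene groups when all measured members were taken, 0.39. With only members of a mean of at least 6, it was 0.42, below the 0.71 of growth hormone feedback genes and the 0.51 of immediate early factors. Of these 13 genes, 11 were higher and 2 lower, with a median difference of 0.39 against 0.01 over all genes, and 5 had an unadjusted p under 0.05, all higher (2.99% of all genes). The mean level over these 13 genes was 7.82, 7.58, 7.73, 7.89, 7.85 and 7.71 in the dosed arrays, against 7.59, 7.55, 7.49, 6.98, 7.42 and 7.01 in the vehicle arrays. The lowest dosed array lay just below the highest vehicle array, and vehicle replicates 4 and 6 were lowest. The median was 0.37 without replicate 5.

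Dusp1, a phosphatase that switches off MAP kinases, had 10.63, 9.996, 11.32, 9.94, 11.04 and 10.47 at 70.6 mg/kg, against 9.88, 9.90, 10.25, 8.21, 9.70 and 8.00 in vehicle. Only vehicle replicate 3 lay within the dosed range. The difference was 1.24 (0.24 to 2.24; adjusted p 0.921), a second probe set gave 1.31, and the value without replicate 5 was 1.15. The Dusp1 promoter from RefSeq, GRCr8, chr10:17184603-17184902 on the plus strand, is shown because cAMP signalling is known to act on early genes through the element TGACGTCA, marked in capitals and searched on both strands.
Dusp1: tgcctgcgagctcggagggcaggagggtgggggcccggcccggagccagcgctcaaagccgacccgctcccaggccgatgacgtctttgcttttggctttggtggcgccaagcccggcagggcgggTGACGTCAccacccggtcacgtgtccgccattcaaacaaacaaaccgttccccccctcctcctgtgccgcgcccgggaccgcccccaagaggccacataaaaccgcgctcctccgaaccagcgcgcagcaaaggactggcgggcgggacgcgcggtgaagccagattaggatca
The match began 124 bases before the start, and 1.83% of the 33469 promoters held one. It was the only one among 9 promoters found for 10 genes looked up after their values were seen.

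Ier3, an early gene of growth and survival signals, had 7.95, 8.31, 8.50, 8.77, 8.21 and 8.80 in dosed arrays, against 8.31, 8.09, 7.97, 7.31, 7.55 and 7.11 in vehicle arrays. Vehicle replicates 4, 5 and 6 lay below all dosed arrays and the others overlapped them, and the difference was 0.70 (0.23 to 1.17). Ier5, a regulator of heat shock factor, was 7.47 to 7.58 at 70.6 mg/kg and 6.80 to 7.43 in vehicle, with no overlap. Its difference was 0.39 (0.11 to 0.68), while its other, dimmer probe sets gave 0.01 and 0.10. Dusp6, which switches off ERK, and Ier2 differed by 0.71 (0.14 to 1.27) and 0.73 (0.14 to 1.33). Nfkbia, the NF-kappa-B inhibitor, differed by -0.15 and Rhob by -0.01, so the members did not all lean one way.

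Among the 20 transcription factors, 13 were higher and 7 lower, the median difference was 0.10, and 4 were higher and 1 lower at an unadjusted p under 0.05. The median was 0.05 without replicate 5 and 0.51 over members with a mean of at least 6, since 12 of the 20 were dimmer than that. The Kruppel-like factor Klf6 had 8.18, 7.48, 7.69, 8.21, 8.21 and 8.08 at 70.6 mg/kg, against 7.58, 7.69, 7.35, 7.47, 7.32 and 7.14 in vehicle. The 4 highest arrays were all dosed ones, and the difference was 0.55 (0.24 to 0.86). The AP-1 subunits Jun and Junb differed by 0.84 (0.21 to 1.47) and 0.54 (0.14 to 0.93), and Maff, a small Maf protein at a low level, by 0.28. The growth factor target Myc differed by 0.70 (-0.01 to 1.40) and the stress factor Atf3 by 0.64. Fos, the partner of Jun, differed by 0.01, and the orphan receptor Nr4a2 by -0.28 (-0.43 to -0.12) at levels of 3.89 to 4.43.

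**Figure D2:**
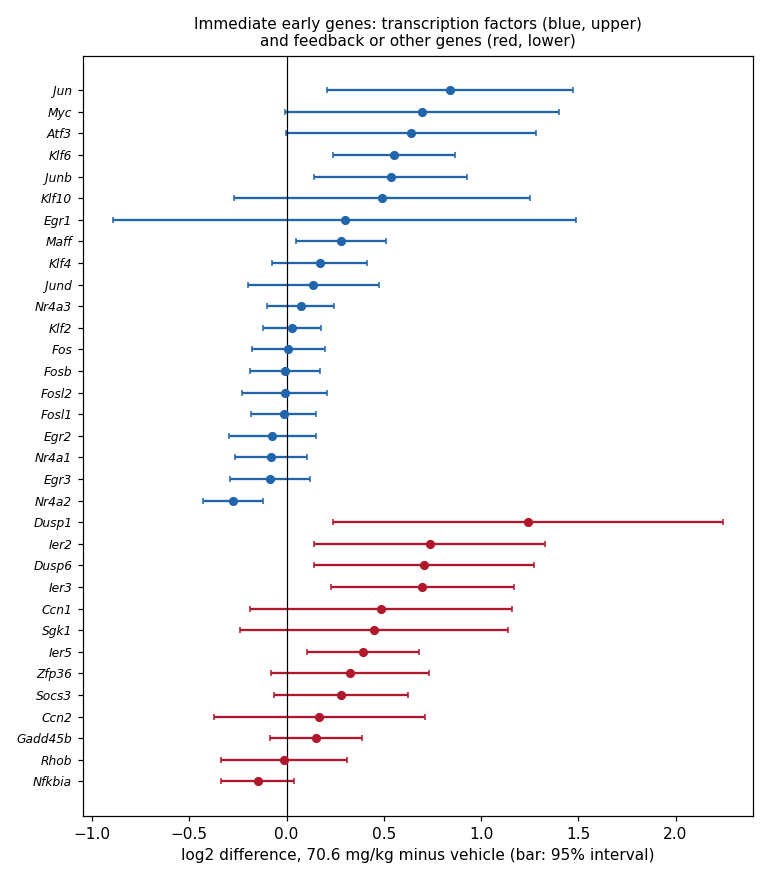
Difference on the log2 scale, 70.6 mg/kg minus vehicle, with its 95% interval (horizontal axis) for 20 immediate early transcription factors (blue, upper) and 13 feedback or other early genes (red, lower). Dusp1 lies farthest to the right at 1.24, while Fos, Fosb and Fosl1 lie close to 0.

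Around the growth hormone axis, Cish differed by more than any gene of the receptor and signal group. The receptor and signal group, with Ghr, Jak2, Stat5a and Stat5b, had 5 of 8 measured members higher and a median of 0.09, with none at an unadjusted p under 0.05. Stat5b itself differed by 0.17 (-0.03 to 0.37). The growth factor Igf1 differed by -0.04 and its carrier Igfals by 0.15 (-0.14 to 0.45). The feedback and repressor group, which pools genes that growth hormone raises and lowers, had 4 of 6 measured members higher. Its median was 0.23, or 0.71 over members with a mean of at least 6, since 2 of the 6 were dimmer than that. In it Bcl6, a repressor that growth hormone lowers, was 6.96, 6.97, 6.56, 9.31, 6.52 and 6.66 in dosed arrays, against 9.58, 7.25, 6.60, 9.004, 7.66 and 8.25 in vehicle arrays. Replicate 4 was far above the other dosed arrays, and the difference was -0.89 (-2.17 to 0.38). Onecut1 differed by 0.97 (-0.44 to 2.38) and Socs2, another STAT5 target, by 0.45. Among 10 sex-biased enzymes the median was -0.02, with 3 higher and 7 lower. The male enzyme Cyp2c11 was 13.36 to 13.63 at 70.6 mg/kg and 13.43 to 13.65 in vehicle, and Hsd17b2, which inactivates sex steroids, was 9.77 to 11.06 at 70.6 mg/kg and 9.48 to 9.93 in vehicle. The difference for Hsd17b2 was 0.56 (0.22 to 0.90), and 0.41 without replicate 5, its highest array.

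Cyp7a1, whose hydroxylation of cholesterol sets the pace at which bile acids are made, had 9.66, 9.27, 8.60, 10.66, 9.37 and 9.69 in dosed arrays, against 10.48, 10.83, 9.30, 10.73, 10.74 and 11.21 in vehicle arrays. In each group 1 array broke the pattern, dosed replicate 4 being high and vehicle replicate 3 low, so the groups overlapped. The difference was -1.01 (-1.99 to -0.02), a 2.01-fold lower level, with an adjusted p of 0.921, and without replicate 5 it was -0.97 (-2.02 to 0.08). The bile acid enzymes as a group lay closer to 0: 6 of 10 were higher, the median was 0.04, and Cyp8b1, which makes cholic acid, differed by 0.19 (-0.11 to 0.49). Of 9 transporters 6 were higher with a median of 0.03, and the uptake carriers Slco1a4 and Slco1b2 differed by 0.21 (-0.00 to 0.42) and 0.06 (-0.04 to 0.16). The 6 sensing and repression genes split evenly, 3 lying above vehicle and 3 below, and their median difference was -0.0009 (range -0.23 to 0.20). The 2 with the smallest p were Mafg, a repressor of bile acid synthesis, and Hnf4a, which activates Cyp7a1. They differed by 0.20 (0.04 to 0.36) and -0.18 (-0.37 to 0.02). The dimmer Mafg probe set gave 0.08 (-0.10 to 0.27), and the dimmer Hnf4a probe sets -0.16 (-0.43 to 0.12) and -0.05 (-0.26 to 0.16). Whether either gene bears on the Cyp7a1 difference was not tested.

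The enzymes of cholesterol biosynthesis leaned upward with small differences: 17 of 18 measured members were higher, with a median of 0.14 and a range of -0.13 to 0.38. Idi1, the isomerase of isopentenyl units, had 11.47, 11.46, 11.42, 10.80, 11.62 and 11.40 at 70.6 mg/kg, against 10.66, 11.001, 10.81, 10.86, 10.94 and 11.62 in vehicle. Dosed replicate 4 was among the vehicle arrays and vehicle replicate 6 among the dosed arrays. Its difference was 0.38 (0.00 to 0.76), and Mvk, the mevalonate kinase, differed by 0.25 (0.03 to 0.47). These 2 were the members with an unadjusted p under 0.05, and without replicate 5 none was, although 16 of 18 were still higher and the median was still 0.14. Sqle, the squalene epoxidase, differed by 0.33 (-0.11 to 0.77).

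Of 10 genes of cholesterol uptake and control, 7 were higher, the median was 0.22, and 3 had an unadjusted p under 0.05, all higher. Without replicate 5 the median was 0.17 and 1 had such a p. Stard4, a carrier of cholesterol between membranes, had 9.08, 9.45, 9.32, 8.66, 9.08 and 8.84 in dosed arrays, against 8.25, 8.76, 9.10, 8.48, 8.50 and 8.64 in vehicle arrays. Most dosed arrays lay above most vehicle arrays, with replicate 4 lowest among the dosed, and the difference was 0.45 (0.07 to 0.83). The other Stard4 probe sets gave 0.15 (-0.11 to 0.41) and 0.12 (-0.10 to 0.33). Abcg5 and Abcg8, the 2 subunits of the pump that moves sterols into bile, differed by 0.54 (0.08 to 1.00) and 0.53 (0.06 to 1.01), and Abcg5 by 0.45 (-0.03 to 0.92) without replicate 5. The sterol element TCACNCCAC, searched on both strands, was in none of 4 promoters found for 7 genes looked up after their values were seen, and in 1.12% of all promoters.

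Interferon genes of antigen processing and their chemokines were all higher in the mean, and much of that difference came with replicate 5. All 13 measured members had a difference above 0, the median was 0.24, and 4 had an unadjusted p under 0.05. Replicate 5 was the highest dosed array in 12 of the 13. Without it the median was 0.12, 12 were higher, and none had an unadjusted p under 0.05. The mean level over the 13 genes was 8.68, 8.41, 8.95, 8.91, 9.52 and 8.65 in dosed arrays, against 8.97, 8.32, 8.36, 8.69, 8.60 and 8.47 in vehicle arrays. Vehicle replicate 1 was higher than every dosed array other than replicate 5.

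Psmb9, an interferon-induced subunit of the immunoproteasome, had 8.53, 8.01, 9.26, 8.78, 10.09 and 8.46 at 70.6 mg/kg, against 9.25, 7.88, 7.82, 8.48, 8.18 and 8.07 in vehicle. Its difference was 0.57 (0.04 to 1.11), and 0.33 without replicate 5. Cxcl9, a chemokine induced by interferon gamma that draws T cells, had 7.76, 6.76, 7.01, 7.47, 8.36 and 7.07 in dosed arrays, against 7.28, 6.81, 6.25, 6.60, 7.09 and 6.65 in vehicle arrays. Its groups overlapped too, and its difference was 0.62 (0.12 to 1.13), or 0.43 without replicate 5. The proteasome activator Psme1 differed by 0.14 (0.02 to 0.26), or 0.087 (-0.02 to 0.20) without replicate 5. The promoter of Tap1, the peptide pump of antigen processing, is shown as a member with a match to the interferon-stimulated element, searched on both strands as GAAA, any 2 bases and GAAA again, and found here in its reverse form, in capitals. The window is chr20:4668494-4668793 on the minus strand, from RefSeq, GRCr8, and overlaps that of Psmb9 on the other strand.
Tap1: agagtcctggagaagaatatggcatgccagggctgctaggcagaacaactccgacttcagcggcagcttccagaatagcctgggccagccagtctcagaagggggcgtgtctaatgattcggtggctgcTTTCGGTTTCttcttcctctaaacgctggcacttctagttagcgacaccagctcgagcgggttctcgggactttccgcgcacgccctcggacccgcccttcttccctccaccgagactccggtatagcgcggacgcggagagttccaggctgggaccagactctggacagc
The match began 121 bases before the start. Such a match was in 3.92% of all promoters and in 3 of 7 found for 8 genes looked up after their values were seen, those of Tap1, Oas1b and Psmb8.

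Interferon antiviral genes leaned the same way by less: 22 of 24 were higher, the median was 0.17, and it was 0.08 without replicate 5. Oas1b, which makes the signal for RNA breakdown, differed by 0.30 (0.01 to 0.59), or 0.22 (-0.08 to 0.51) without replicate 5, while Ifit1, a blocker of viral RNA translation, was 5.22 to 5.74 at 70.6 mg/kg and 5.49 to 6.00 in vehicle, a difference of -0.26 (-0.46 to -0.05). Of 10 signal genes 7 were higher with a median of 0.06, or 0.014 without replicate 5, and Irf1, the first factor downstream of interferon gamma, differed by 0.35 (-0.01 to 0.70), or 0.22 without replicate 5. For MHC class II presentation, replicate 5 was the highest dosed array in 9 of 9 genes, and with it 8 were higher with a median of 0.23. Without it, 4 were higher and the median was -0.004. RT1-DMa, which loads peptides on class II molecules, was 7.40 in replicate 5 and 6.02 to 6.36 in the other dosed arrays, against 5.78 to 6.49 in vehicle.

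**Figure D3:**
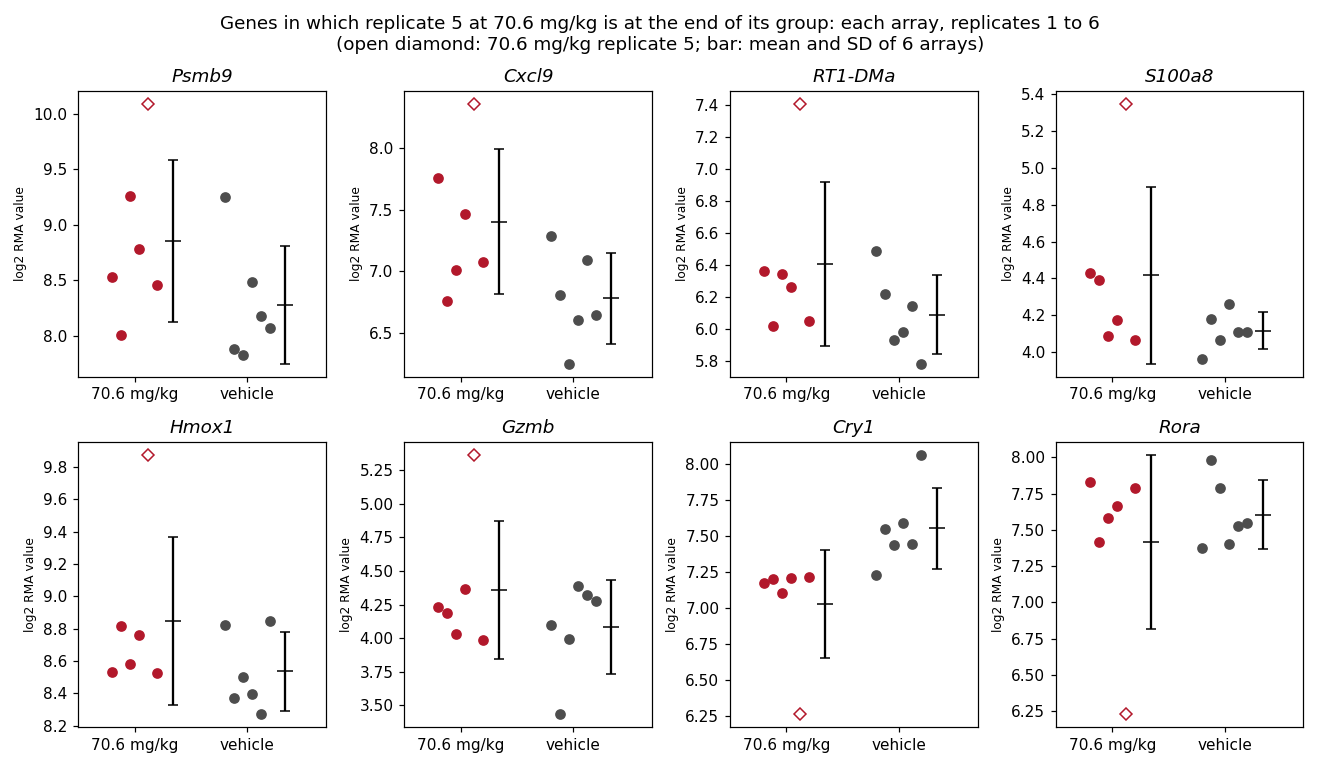
Deposited log2 value (vertical axis) of 8 genes on each array at 70.6 mg/kg (red, left in each panel) and in vehicle (grey, right), replicates 1 to 6 from left to right, with the mean and SD of 6 arrays as a bar. Replicate 5, the open diamond, is the highest dosed array in Psmb9 at 10.09, in Cxcl9 at 8.36 and in Gzmb at 5.37, and the lowest in Cry1 at 6.26 and Rora at 6.23.

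In its brighter probe set the class II gene RT1-Bb took 2 kinds of level. They were 6.73, 3.84, 7.44, 6.86, 8.08 and 3.84 at 70.6 mg/kg, and 7.31, 4.30, 3.72, 3.77, 4.19 and 4.14 in vehicle. High values were thus seen in 4 dosed arrays and in 1 vehicle array, and the difference was 1.56 (-0.25 to 3.37). The dimmer RT1-Bb probe set gave -0.02 (-0.31 to 0.28). Replicate 5 was often the highest dosed array in markers of immune and erythroid cells as well. It was highest in 8 of 12 Kupffer cell and macrophage markers, 9 of 14 lymphocyte markers and 3 of 6 neutrophil and monocyte markers. It was also highest in 6 of 7 erythroid markers. Over all genes that share was 33.2%. The mean level of the lymphocyte markers was 5.28 in replicate 5 and 4.68 to 4.77 in the other dosed arrays, against 4.55 to 4.89 in vehicle. Among them Gzmb, the granzyme of cytotoxic cells, was 5.37 in replicate 5 and 3.99 to 4.36 in the other dosed arrays, against 3.43 to 4.39 in vehicle. The part of these markers, and of the RNA control difference, in the interferon and class II values was not tested.

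The target enzymes of PPAR alpha were evenly split against vehicle when all 6 dosed arrays were taken. Of 22 measured enzymes 11 were higher and 11 lower, the median difference was 0.00, and none had an unadjusted p under 0.05. Without replicate 5, 14 were higher and 8 lower, the median was 0.02, and again none had such a p. Replicate 5 was the lowest dosed array in 11 of the 22, against 19.4% of all genes. Cyp4a1, the fatty acid hydroxylase that peroxisome proliferators raise strongly, was 11.17, 11.46, 11.29, 11.01, 10.58 and 11.33 in dosed arrays, against 11.03, 11.46, 11.01, 11.49, 11.72 and 11.01 in vehicle arrays. The groups overlapped, replicate 5 was the lowest array, and the difference was -0.14 (-0.45 to 0.16), or -0.03 without it. The upper bound of that interval lies well under a doubling. Pdk4, which spares glucose by blocking pyruvate use, was 9.26 to 9.95 at 70.6 mg/kg and 8.44 to 9.75 in vehicle. Its difference was 0.39 (-0.09 to 0.87), while a second Pdk4 probe set, at a mean of 7.60, gave -0.002 (-0.44 to 0.44). Vnn1 differed by -0.19 (-0.43 to 0.05). Among 10 other targets, Pex11a, a peroxisome division protein, differed by -0.20 (-0.38 to -0.02), or -0.16 (-0.35 to 0.02) without replicate 5, and the lipid droplet protein Plin2 by -0.18 (-0.36 to 0.01). Lipogenesis had 6 of 20 genes higher and a median of -0.03. In it Acaca, the first enzyme of fatty acid synthesis, differed by -0.17 (-0.35 to 0.02) and Acss2, which makes acetyl-CoA from acetate, by 0.24 (-0.05 to 0.54).

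Genes of foreign compound metabolism differed little. Of 15 CAR and PXR targets, 12 were higher with a median of 0.06 and none had an unadjusted p under 0.05. Without replicate 5, 14 were higher, the median was 0.10 and 2 had such a p, both higher. Cyp3a23-3a1, a main PXR target in rat, was 12.31 to 12.92 at 70.6 mg/kg and 12.03 to 13.02 in vehicle, a difference of 0.01 (-0.23 to 0.24). Ces2c, a carboxylesterase, and Ephx1, an epoxide hydrolase, differed by 0.20 and 0.17 with intervals that included 0, and Ephx1 by 0.20 (0.002 to 0.39) without replicate 5. Cyp1a1, the standard target of the aryl hydrocarbon receptor, was 4.12 to 4.79 in dosed arrays against 4.37 to 4.91 in vehicle, a difference of -0.19 (-0.40 to 0.03). Of the 9 genes of that receptor 2 were higher, among them Tiparp at 0.35 (0.00 to 0.69), or 0.31 (-0.05 to 0.67) without replicate 5. Of 17 NRF2 antioxidant genes 9 were higher and the median was 0.01. Mgst2 differed by 0.15 (0.02 to 0.29), and Hmox1, the haem-degrading enzyme, by 0.31, or 0.11 without replicate 5, in which it was 9.88 against 8.53 to 8.81 in the other dosed arrays.

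**Figure D4:**
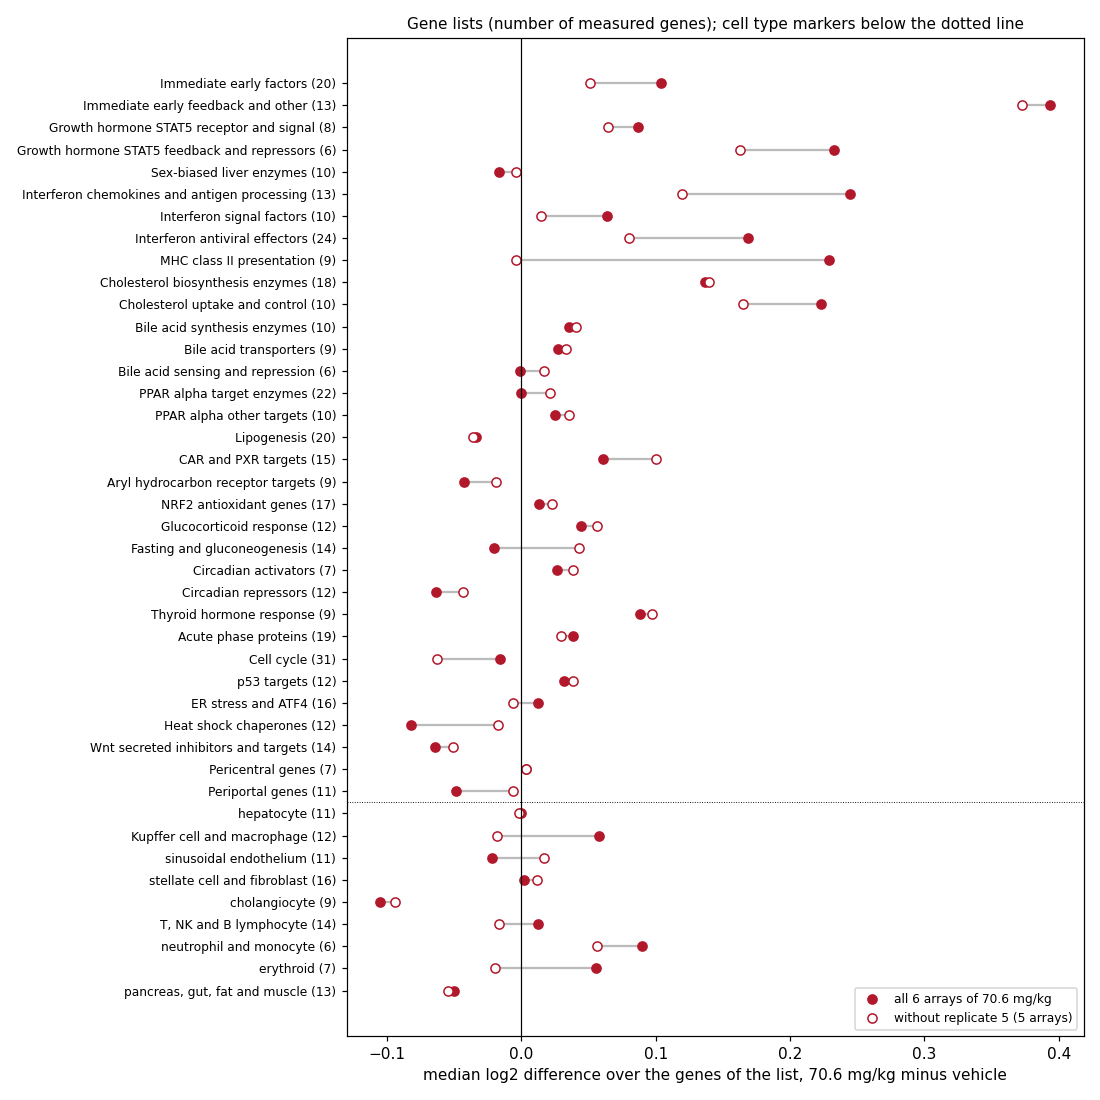
Median log2 difference, 70.6 mg/kg minus vehicle (horizontal axis), over the measured genes of 33 gene groups and 9 marker groups, with all 6 dosed arrays (filled) and without replicate 5 (open); a line joins the pair. Immediate early feedback and other genes have the largest median at 0.39 and keep 0.37 without replicate 5, while MHC class II presentation goes to -0.004 without it and PPAR alpha target enzymes lie at 0.00.

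Clock genes were divided. Among 12 circadian repressors the median was -0.06, with 5 higher and 7 lower, and 3 were higher and 1 lower at an unadjusted p under 0.05. The median was 0.15 over members with a mean of at least 6, since 6 of the 12 were dimmer than that. Bhlhe40 differed by 0.84 (0.07 to 1.62), Nr1d2 by 0.54 (0.12 to 0.95) and Nfil3 by 0.37 (0.11 to 0.63). Cry1, a core repressor, had 7.17, 7.20, 7.10, 7.21, 6.26 and 7.21 in dosed arrays, against 7.23, 7.55, 7.44, 7.59, 7.45 and 8.06 in vehicle arrays. All dosed arrays lay below all vehicle arrays, and the difference was -0.53 (-0.89 to -0.17), or -0.37 without replicate 5, the lowest one. Among 7 activators the median was 0.03. Bmal1 differed by -0.09 (-0.26 to 0.08), and Rora by -0.19 with replicate 5 and by 0.05 without it.

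Other programmes of the liver lay close to the background. Glucocorticoid response had 6 of 12 genes higher and a median of 0.05, fasting and gluconeogenesis 6 of 14 and -0.02, and acute phase proteins 14 of 19 and 0.04. Pck1, the first committed enzyme of gluconeogenesis, differed by -0.33 (-0.72 to 0.05) and Fbp1, a later enzyme, by -0.13 (-0.25 to -0.00). Of 9 thyroid hormone genes 7 were higher with a median of 0.09, with Klf9 at 0.32 (-0.09 to 0.72) and the deiodinase Dio1 at 0.12 (-0.06 to 0.30). Of 31 cell cycle genes 21 were lower with a median of -0.02, and Ccne2, the cyclin of entry into DNA synthesis, differed by -0.22 (-0.40 to -0.03) at levels of 3.25 to 3.70. In the p53 group 9 of 12 were higher with a median of 0.03, and Gadd45a, a damage response relative of Gadd45g, differed by 0.66 (0.08 to 1.23). The ER stress group had 9 of 16 higher and a median of 0.01, with Xbp1, the spliced stress factor, at 0.34 (-0.00 to 0.68). Heat shock chaperones had 7 of 12 lower and a median of -0.08. Wnt genes had 10 of 14 lower and a median of -0.06, with Tbx3 at -0.44 (-0.88 to 0.00). The other, dimmer probe sets of Tbx3 gave -0.04, -0.07 and -0.11. Periportal genes had 8 of 11 lower and a median of -0.05, and pericentral genes 4 of 7 higher and a median near 0. Without replicate 5 the median was 0.043 for fasting and gluconeogenesis, -0.063 for the cell cycle, -0.006 for ER stress, -0.017 for heat shock chaperones and -0.006 for periportal genes.

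Markers of cells other than hepatocytes were counted in the same way. Of 12 Kupffer cell and macrophage markers 10 were higher with a median of 0.06, and 5 were higher without replicate 5, with a median of -0.02. Of 11 sinusoidal endothelium markers 5 were higher, of 16 stellate cell and fibroblast markers 9, and of 9 cholangiocyte markers 3, with a median of -0.10 for the last group, 8 of whose 9 members had a mean under 6; the remaining one, Epcam, differed by 0.16 (-0.03 to 0.36). Of 14 lymphocyte markers 9 were higher with a median of 0.012, and 3 were higher without replicate 5, with a median of -0.016. Of 6 neutrophil and monocyte markers 3 were higher, all 3 with an unadjusted p under 0.05 (2.99% of all genes), and the median was 0.09. Without replicate 5, 1 had such a p and the median was 0.056, and S100a8, a calcium-binding protein of neutrophils, differed by 0.12 (-0.08 to 0.31), against 0.30 (0.03 to 0.57) with it. All 14 lymphocyte and all 6 neutrophil and monocyte markers had a mean under 6. Of 7 erythroid markers 4 were higher with a median of 0.06, and 1 was higher without replicate 5, with a median of -0.020. Among them Nfe2, a factor of red cell and platelet precursors, had 7.22, 7.95, 7.44, 5.74, 8.16 and 5.43 at 70.6 mg/kg, against 4.43, 4.67, 6.52, 5.90, 4.96 and 7.27 in vehicle. The groups overlapped broadly and the difference was 1.36 (0.22 to 2.51), or 1.13 (-0.06 to 2.32) without replicate 5, while the other erythroid markers, such as Hbb at 0.06 and Alas2 at 0.06, lay near 0. Genes of pancreas, gut, fat and muscle had 9 of 13 lower and a median of -0.05.

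The 70.6 mg/kg arrays were also set against the 24 arrays of the other 4 doses, which leaves the vehicle arrays out of the contrast. Genes and groups named from the vehicle comparison were picked with the values of the same dosed arrays known. For those the contrast is not an independent check. No probe set was called (0 of 31042, 0.0%), the smallest adjusted p was 0.568, and 1291 probe sets had an unadjusted p under 0.05 (4.16%), 687 of them higher (2.21%) and 604 lower (1.95%). Of the 14217 genes 561 did (3.95%), 313 higher (2.2%) and 248 lower (1.74%). That adjusted p belonged to the probe set annotated to the microRNA gene Mir29c, at 4.57 ± 0.15 at 70.6 mg/kg (SD, n = 6) against 4.24 ± 0.14 at the other doses (SD, n = 24), a difference of 0.33 (0.19 to 0.46). Rasal3 and Steap1 differed by 0.23 and 0.26, and Nsd1, Eloa and Tmem170b by -0.22, -0.26 and -0.25, all in dim probe sets. Cish was 8.10 ± 0.17 at 70.6 mg/kg, against 5.26 to 8.25 with a median of 7.54 at the other doses, a difference of 0.92 (0.11 to 1.73). Gadd45g differed by 1.24 (0.31 to 2.17), Dusp1 by 0.97 (0.18 to 1.77) and Ier3 by 0.58 (0.21 to 0.95). The intervals included 0 for Hhex at 0.46 (-0.04 to 0.95), Rgs3 at 0.53 (-0.06 to 1.13) and Klf6 at 0.24 (-0.01 to 0.49). They also did for Cyp7a1 at -0.60 (-1.38 to 0.18) and Nfe2 at 0.24 (-0.67 to 1.14). The adjusted p of Cish and of each of these genes was 0.9999 in limma. The median over the 13 immediate early feedback and other genes was 0.29 against 0.006 over all genes. The median over the 18 cholesterol enzymes was 0.003.

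Set against the same 6 vehicle arrays, the doses can be given side by side, but since they share those arrays their differences are not independent. Cish differed from vehicle by 0.69 at 0.07 mg/kg, 0.72 at 0.71 mg/kg, 0.66 at 7.06 mg/kg, 1.58 at 70.6 mg/kg and 0.55 at 706 mg/kg. Gadd45g differed by 0.26, 0.70, 0.32, 1.60 and 0.13 in the same order of doses. Cyp7a1 differed by -0.31, -0.32, -0.63, -1.01 and -0.40, and Nfe2 by 1.31, 0.92, 0.91, 1.36 and 1.36. In Cish, Gadd45g and Cyp7a1 the size was largest at 70.6 mg/kg and smaller at 706 mg/kg. These genes were chosen by their size at 70.6 mg/kg, which favours such a layout, and the shape over dose was not tested. The median over the cholesterol enzymes was 0.24, 0.13, 0.08, 0.14 and 0.14, and over the immediate early feedback and other genes 0.12, 0.11, 0.12, 0.39 and 0.10.

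**Figure D5:**
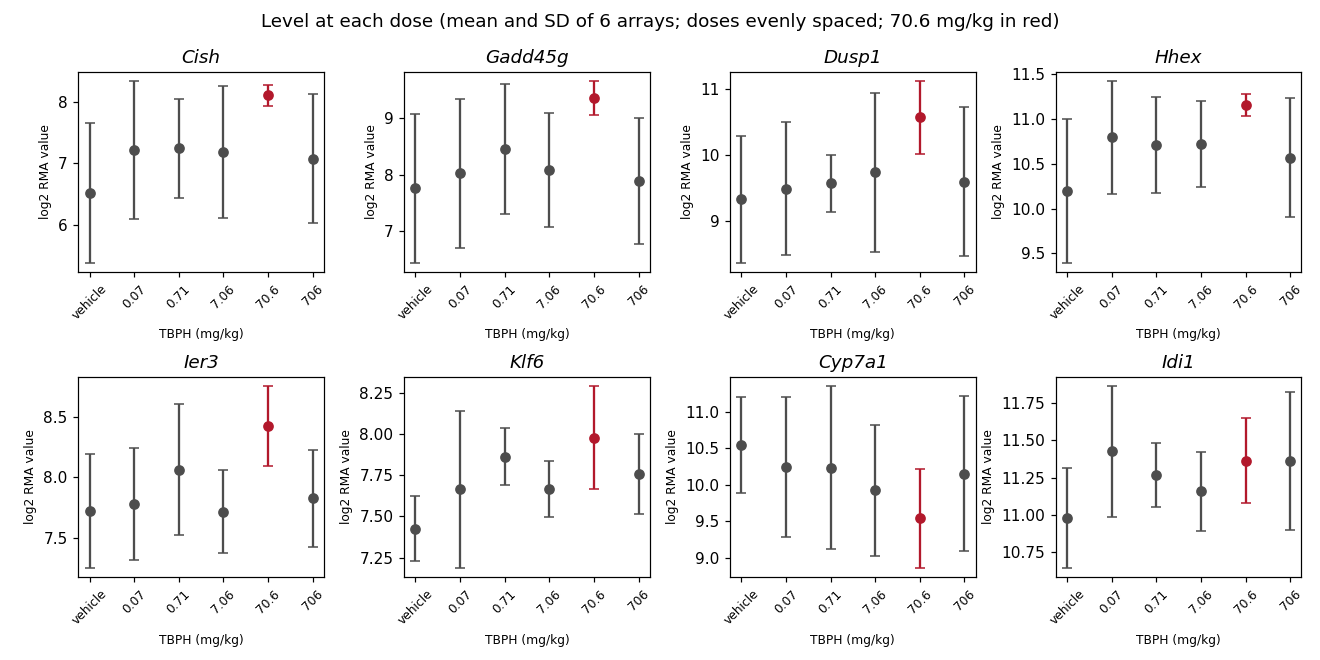
Mean deposited log2 value with the SD of 6 arrays (vertical axis) for 8 genes in vehicle and at 5 doses of TBPH in mg/kg (horizontal axis, evenly spaced, not to scale), with 70.6 mg/kg in red. Cish is at 8.10 ± 0.17 at 70.6 mg/kg, with a smaller SD than in the other groups, and Cyp7a1 is lowest there at 9.54 ± 0.68.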

How the data were processed

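Liver RNA of male rats was measured on Affymetrix rat arrays, 36 in all. The deposited table holds log2 values that the authors made with RMA in the affy package, per the submitters' processing notes; versions and genome build are not given in the sources used here. RMA corrects background and quantile normalises all arrays together, so values are relative and dim probe sets are compressed. There are no counts, so the precision is set by the number of arrays.

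The 57 array controls among the 31099 probe sets were not used. Symbols came from GEO's platform annotation: 20826 probe sets had 1 symbol, 436 several and 9780 none, and 20758 matched the current rat annotation by Entrez number. The brightest probe set stood for each of 14217 genes, of which 4525 had more than 1. Groups were taken from the labels. limma 3.58.1 in R 4.3.3 was fitted to all 36 arrays with 1 mean per group and 30 residual degrees of freedom, with two-sided moderated tests, Benjamini-Hochberg adjustment over all 31042 probe sets and a threshold of 0.05. The authors' design names R/maanova, which was not used here. The fit was tested on simulated data. Figures and summaries used Python 3.11.15, pandas 2.3.3, numpy 2.4.6 and matplotlib 3.10.9.

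Genes were named by rule: the 6 higher and 6 lower with the smallest p, the 6 and 6 with the largest difference at a mean of at least 6 and an unadjusted p under 0.05, a fixed panel, the 2 members of each group with the smallest p, and the 3 and 3 with the smallest p against the other doses. Other genes were chosen after their values were seen: Jun, Junb, Maff, Myc, Atf3, Fos, Dusp6, Ier2, Nfkbia, Rhob, Socs2, Onecut1, Igf1, Abcg8, Bhlhe40, Nr1d2, Hbb, Alas2 and the promoter genes. The members and groups were chosen with earlier results of these data known. Alternatives covered the filter, normalisation, moderation, array weights, the control difference, the replicate block, the arrays fitted and leaving out each array.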

Additional observations from a re-analysis of the deposited data

Results flagged for a closer look

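Among 224 groups of 6 arrays tested for a single array far from the others, 20 were marked (8.93%). About 1 in 20 would be marked by chance if the groups were independent and normally spread. The genes were chosen with their values known and can vary together, so the share is a description. Of the marks, 16 were dosed arrays and 12 of them were replicate 5 at 70.6 mg/kg. Those of replicate 5 include the GAPDH control difference, by which that array had been singled out beforehand.

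In replicate 5 the value lay below the other 5 dosed arrays for the clock genes Cry1 (6.26, others 7.10 to 7.21), Rora (6.23, others 7.41 to 7.83) and Bmal1 (6.89, others 7.22 to 7.36). It was also low for the interleukin receptor Il1r1 (7.97) and the pericentral enzyme Cyp2e1 (13.37). It lay above the other dosed arrays for the class II gene RT1-DMa (7.40), for Hmox1 (9.88), for the macrophage receptor gene Csf1r (8.26), for the cytotoxic cell genes Gzmb (5.37) and Klrd1 (4.91), and for the neutrophil gene S100a8 (5.35). The GAPDH 3′ minus 5′ control difference of the same array was 0.41, against -0.15 to 0.05 for the others at that dose.

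Replicate 4 at 70.6 mg/kg was low for Idi1 (10.80, others 11.40 to 11.62) and high for Bcl6 (9.31, others 6.52 to 6.97) and Pck1 (12.92, others 12.36 to 12.56). Replicate 2 at 70.6 mg/kg was low for Ces2c (7.05). Among vehicle arrays, replicate 6 was high for Idi1 (11.62), replicate 1 for Ifit1 (6.00) and RT1-Bb (7.31), and replicate 2 for Epcam (9.02).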

How the results depend on the processing

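No probe set was called against vehicle under any alternative run, nor at an adjusted p under 0.1; the lowest adjusted p among the fits that left out 1 array was 0.153 in limma, without 70.6 mg/kg replicate 4. The number with an unadjusted p under 0.05, 1626 as reported, was 1269 to 2052 when each array was left out in turn, with the lowest number without vehicle replicate 6 and the highest without 70.6 mg/kg replicate 6. It was 660 among the 11680 probe sets with a mean of at least 6 and 758 when 1 probe set per gene was fitted; fewer probe sets were tested there. With the replicate number as a block it was 1580 and no probe set was called. Fitted on only the 12 arrays of 70.6 mg/kg and vehicle, it was 1400 (4.51%), with a smallest adjusted p of 0.969 in limma. The labels do not say what the replicate numbers mean. In 70.6 mg/kg and vehicle the deviations of same-numbered arrays correlated between -0.24 and 0.16, and only replicate 3 correlated best with its own number. Such correlations cannot show whether same-numbered arrays shared a day or litter. Of 2424 gene values under these alternatives, 2414 kept their direction and their side of the threshold. The other 10 concerned 3 genes. Rora was 0.050 without replicate 5, 0.050 without both arrays of high control difference, and 0.0094 with the control difference as a covariate; leaving out each array gave -0.27 to 0.050. Klrd1 was -0.019 without replicate 5 and -0.019 without both arrays, and leaving out each array gave -0.019 to 0.24. Cyp3a23-3a1 ran from -0.11 to 0.086 when each array was left out. The cause was not tested for these 3. Of 964 group medians, 4 moved by more than 1 SD of the group's mean level over the arrays, the larger SD of 70.6 mg/kg and vehicle, all on keeping only members with a mean of at least 6: immediate early factors to 0.51, growth hormone feedback genes to 0.71, circadian repressors to 0.15 and cholangiocyte markers to 0.16. Fewer members enter those medians. That SD is large beside most medians, and 21 of the 42 took both signs when each array was left out. MHC class II ran from -0.004 without replicate 5 to 0.39 without replicate 2 at 70.6 mg/kg, interferon antigen processing from 0.12 without replicate 5 to 0.34 without vehicle replicate 1, the cell cycle from -0.10 to 0.049, lipogenesis from -0.088 to 0.035 and bile acid enzymes from -0.0096 to 0.051. Immediate early feedback and other genes ran from 0.33 to 0.41. With 6 arrays a group, the median standard error of a difference was 0.08.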

Other observations

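The dosed arrays varied less than the vehicle arrays in several genes with large differences: the SD over 6 arrays was 0.17 at 70.6 mg/kg and 1.13 in vehicle for Cish, 0.30 and 1.31 for Gadd45g, and 0.12 and 0.80 for Hhex. A probe set of Rup2, chosen after its values were seen, had the same layout, with 10.48, 10.64, 10.62, 10.51, 10.32 and 11.32 at 70.6 mg/kg, against 10.05, 10.44, 11.21, 8.31, 8.27 and 7.85 in vehicle. Vehicle replicates 4, 5 and 6 were again the low arrays, and its difference was 1.29 (0.32 to 2.27; adjusted p 0.921 in limma). The other 3 probe sets of Rup2 were brighter, at about 14, and gave -0.031, 0.0040 and -0.031.

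Of all probe sets, 11 differed by more than 1 on the log2 scale, and 3 of them took values of 2 kinds. The probe set annotated to Ugt2b was 5.36 in vehicle replicate 5 and 12.97 to 13.29 in the other vehicle arrays, against 12.62 to 13.30 at 70.6 mg/kg. A probe set without a symbol was 3.99, 11.13, 3.64, 10.50, 4.33 and 10.45 at 70.6 mg/kg, against 10.62, 10.02, 10.20, 10.46, 3.99 and 10.31 in vehicle. With RT1-Bb, described above, these values separate single arrays more than they separate the groups.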
